A study of Mus musculus with 2 samples.

Results

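Monocyte_1 was the label given by the depositors to 1083 of 7815 cells of a single-cell RNA-seq experiment on tumour-infiltrating leukocytes of mouse melanoma. Members were all cells with this label in the deposited cell annotation, 984 of 2975 cells from therapy-naive tumour (NTT) and 99 of 4840 cells from resistant tumour (RTT). They were compared with cells labelled Infl_Mono (620 in NTT and 94 in RTT) and with the pooled macrophage labels Macro, Ctsk_Macro, TAM_cycling, TAM_Spp1, TAM_H2Ab1 and TAM_C1q (582 and 4009 cells). The tumours were grown under the skin of C57BL/6 mice from YUMM3.3, a Braf-mutant, Cdkn2a-deficient mouse melanoma line, and live CD45+ cells were sorted at day 12. NTT was the parental line, never exposed to drug, and RTT was a derivative kept in the BRAF inhibitor dabrafenib until it resisted targeted therapy. Each group was 1 library, and the number of tumours in it is not given in the sources used here, so the tumour line, the mice, the sort and the library cannot be told apart, and no p-value is given. The labels are clusters of these same cells, so differences between labels describe how the cells were sorted into them. The published methods name another day for one of the single-cell experiments, and day 12 is taken from the sample record.

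Monocytes are short-lived myeloid cells that leave the bone marrow, circulate in the blood and enter inflamed tissue and tumours through the chemokine receptor CCR2. There they can take on antigen-presenting or macrophage programs, losing monocyte genes and gaining MHC class II molecules, complement C1q and lipid-handling genes. Type I interferon induces antiviral genes in them through the ISGF3 complex, whereas interferon-γ mainly induces class II genes, guanylate-binding proteins and the chemokine CXCL9. Both interferons raise MHC class I.

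Promoters of genes on which the comparisons turn are shown first, so that the interferon motifs can be seen beside the levels that follow. They are given on the strand of the gene, from 250 bases before to 50 bases after the RefSeq start on build GRCm38.p6. The interferon-stimulated response element, bound by ISGF3 and IRF factors, was searched as a pair of GAAA half-sites with any 2 bases between them, and the γ-activated site, the element of interferon-γ-responsive promoters, as TTCNNNGAA. Both strands were searched, overlapping matches were counted, and capitals mark the matched bases. The promoters of Isg15 at chr4:156200769-156201068 (minus strand), Il1r2 at chr1:40085843-40086142 (plus), Cxcl9 at chr5:92328030-92328329 (minus), Plac8 at chr5:100572156-100572455 (minus) and H2-Q7 at chr17:35438905-35439204 (plus) read as follows.
Isg15: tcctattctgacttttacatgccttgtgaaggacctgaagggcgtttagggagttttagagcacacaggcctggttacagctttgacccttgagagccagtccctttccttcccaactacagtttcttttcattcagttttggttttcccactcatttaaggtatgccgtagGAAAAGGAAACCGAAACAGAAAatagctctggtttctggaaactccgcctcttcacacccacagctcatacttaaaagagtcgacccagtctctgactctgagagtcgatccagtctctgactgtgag
Il1r2: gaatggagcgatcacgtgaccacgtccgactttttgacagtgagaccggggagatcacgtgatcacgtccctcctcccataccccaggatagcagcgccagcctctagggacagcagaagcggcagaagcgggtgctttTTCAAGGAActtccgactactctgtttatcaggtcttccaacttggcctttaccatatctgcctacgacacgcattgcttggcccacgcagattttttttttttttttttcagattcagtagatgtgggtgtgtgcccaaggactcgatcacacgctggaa
Cxcl9: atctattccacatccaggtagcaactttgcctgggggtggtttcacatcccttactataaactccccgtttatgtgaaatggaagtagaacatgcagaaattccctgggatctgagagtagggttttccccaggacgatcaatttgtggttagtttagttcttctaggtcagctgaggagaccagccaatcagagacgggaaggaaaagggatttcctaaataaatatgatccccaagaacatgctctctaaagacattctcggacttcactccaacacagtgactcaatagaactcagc
Plac8: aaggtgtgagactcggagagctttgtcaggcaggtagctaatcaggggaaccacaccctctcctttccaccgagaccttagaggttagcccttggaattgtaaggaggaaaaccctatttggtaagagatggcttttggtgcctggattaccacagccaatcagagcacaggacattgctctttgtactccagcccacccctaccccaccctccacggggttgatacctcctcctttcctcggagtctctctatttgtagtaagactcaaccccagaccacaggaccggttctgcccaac
H2-Q7: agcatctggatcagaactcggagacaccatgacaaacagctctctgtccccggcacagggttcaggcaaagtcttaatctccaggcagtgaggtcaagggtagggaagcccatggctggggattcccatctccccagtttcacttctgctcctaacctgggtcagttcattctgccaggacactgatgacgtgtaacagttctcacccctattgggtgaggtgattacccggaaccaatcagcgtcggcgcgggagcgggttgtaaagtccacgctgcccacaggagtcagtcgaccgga
The Isg15 promoter held 3 overlapping matches to the response element, beginning 78 to 66 bases before the start. The Il1r2 promoter held 1 match to the γ-activated site, 111 bases before the start, which lies inside the annotated gene. The other 3 promoters shown held no match, which says only that these letters are not in this window.

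Among 32851 RefSeq promoters of this length, 3.44% held the response element and 8.30% the γ-activated site. Of the antiviral interferon-stimulated genes listed for this comparison, 28 matched a promoter and 16 of these (57.1%) held the response element, against 2 (7.14%) with the γ-activated site. Of the interferon-γ-induced genes, 17 matched, and 11 (64.7%) held the response element and 7 (41.2%) the γ-activated site. Of 7 class II promoters, 1 held the response element. Of the 5 markers given for Monocyte_1, 3 matched a promoter. These were H2-Q7, Il1r2 and Plac8. A match is a description of the sequence and not of factor binding.

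Levels below are UMI counts summed over the cells of a label in a library and divided by that label's total, given per 1000000 UMIs (CPM). Intervals are exact 95% intervals (Poisson for a level, binomial for a ratio or a share) and cover counting error only, not the difference between mice. The Monocyte_1 sums held 5417042 UMIs in NTT and 525584 in RTT. The median cell had 5073.5 UMIs and 1885 genes in NTT and 4823 UMIs and 1822 genes in RTT, close to Infl_Mono (4811 and 5385.5 UMIs) and below the macrophages (8228.5 and 9021 UMIs). The libraries shared 7 cell barcodes, of which 1 belonged to a Monocyte_1 cell. Summed levels cannot tell a change in all cells from a change in the mix of cells under a label.

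Monocyte_1 cells made up 44.8% of monocytes and macrophages in NTT (95% interval 42.7 to 46.9) and 2.35% in RTT (1.92 to 2.86). There were 1.69 Monocyte_1 cells per macrophage in NTT and 0.0247 in RTT. Within the monocyte labels alone the shares lay closer together, 60.9% in NTT (58.5 to 63.3, 984 of 1615 cells) and 49.7% in RTT (42.6 to 56.9, 99 of 199 cells). Among monocytes and macrophages, the lower share of Monocyte_1 in RTT was thus mainly one of monocytes against macrophages. The split between Monocyte_1 and the other monocytes differed less. Monocyte_1 was also scarcer in RTT beside other leukocytes, with 279 cDC2 and 178 NK cells in NTT and 413 and 51 in RTT.

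The given markers were checked in every label of at least 20 cells (the plot of marker levels by label). Ly6i, a Ly6-family surface protein gene at 15:74979534-74983430, stood at 206 CPM (194 to 218) in NTT Monocyte_1 and 205 (189 to 221) in NTT Infl_Mono, which did not differ beyond counting error. In RTT it stood at 127 CPM (98.8 to 162) in Monocyte_1 and 20.4 (10.5 to 35.6) in Infl_Mono, with 63.8 in TAM_H2Ab1 between them. Of the 5 markers it was the one whose highest level was in Monocyte_1 in both libraries, though in NTT this held only by the point estimate. NK cells, which should lack it, had 3.01 CPM in NTT. The Ly6i promoter is not shown here.

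**Figure D1:**
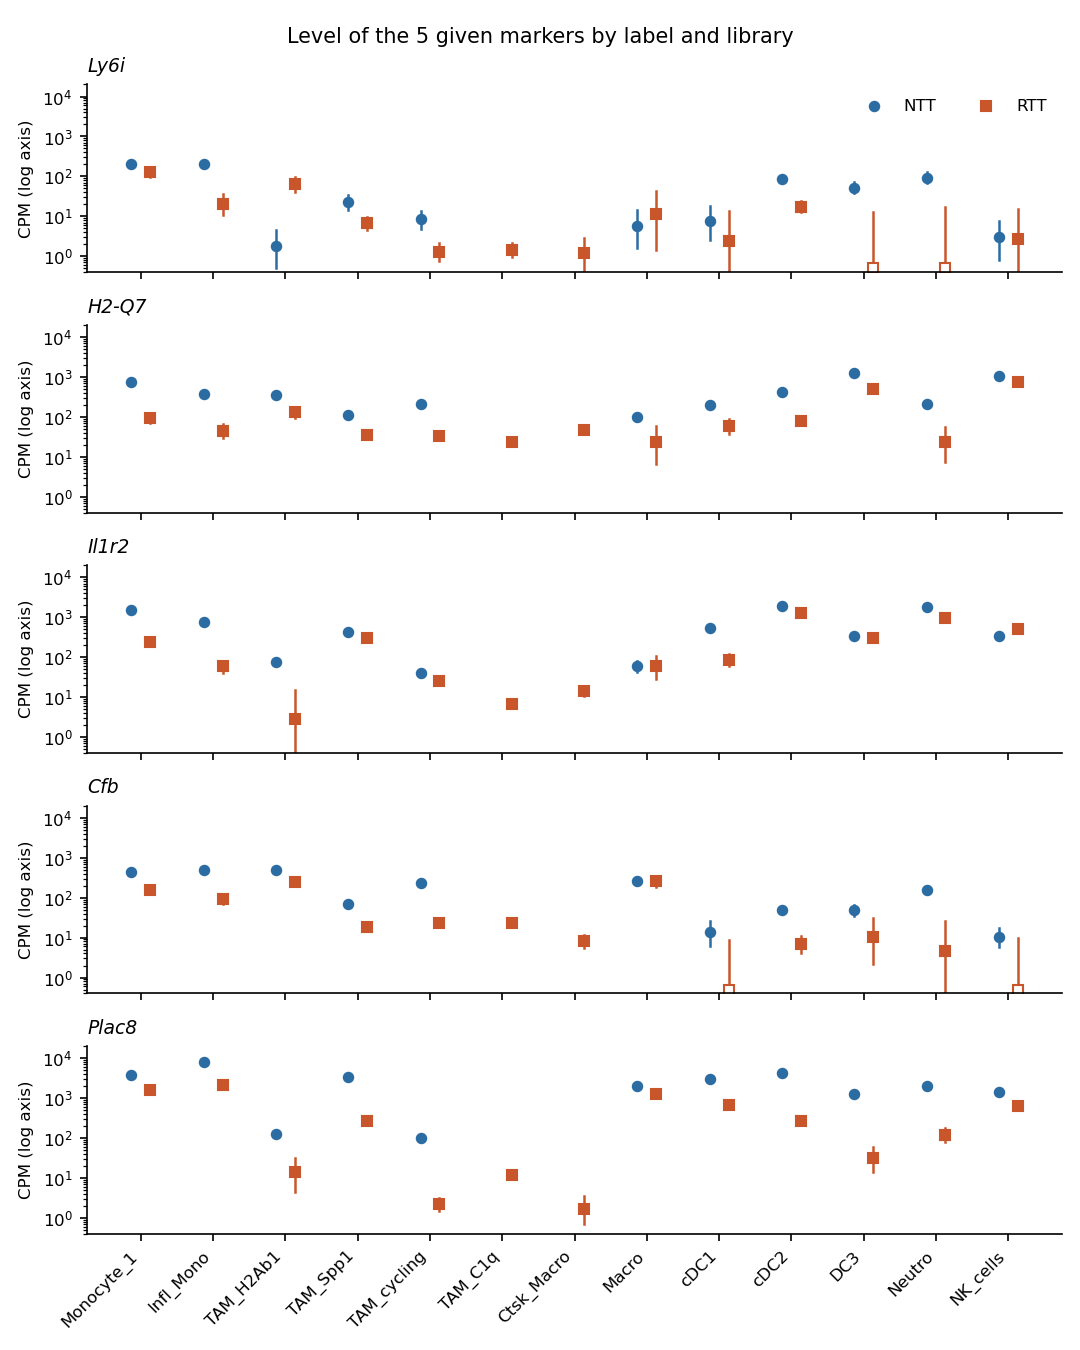
Level of the 5 given markers (CPM, log axis) in each label of at least 20 cells, in NTT (circles) and RTT (squares), with exact Poisson intervals. Open symbols on the lower edge mark 0 UMIs with the upper limit, and Monocyte_1 is the highest label for Ly6i alone, at 206 CPM in NTT and 127 CPM in RTT.

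H2-Q7, a gene of the nonclassical MHC class I molecule Qa-2 at 17:35439155-35443773, was at 725 CPM in Monocyte_1 of NTT, below DC3 (1274) and NK cells (1065) and above Infl_Mono (368). In RTT it was at 93.2 CPM in Monocyte_1 against 749 in NK cells and 44.1 in Infl_Mono. Il1r2, the decoy receptor for interleukin-1 at 1:40074079-40125231, was at 1545 CPM in NTT Monocyte_1, below cDC2 (1953) and neutrophils (1832) and above Infl_Mono (744). In RTT Monocyte_1 its level of 247 CPM (207 to 294) was under that of cDC2 (1319) and NK cells (518) and near that of TAM_Spp1 (301). Both genes were higher in Monocyte_1 than in Infl_Mono in each library, and each was higher still in a dendritic label, H2-Q7 in DC3 (494 CPM in RTT) and Il1r2 in cDC2, while H2-Q7 in cDC2 was lower than in Monocyte_1 in NTT (417 CPM).

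Cfb, complement factor B at 17:34856374-34862518, had 452 CPM in NTT Monocyte_1, beside 487 in Infl_Mono and 507 in TAM_H2Ab1. In RTT it had 156 CPM in Monocyte_1, 93.4 in Infl_Mono and 247 in TAM_H2Ab1. Plac8, at 5:100553725-100572245, was at 3788 CPM in NTT Monocyte_1 and 7994 in Infl_Mono. In RTT the levels of Plac8 were 1634 and 2107 CPM. All 5 markers were higher in Monocyte_1 than in the pooled macrophages of the same library, while Cfb and Plac8 were not highest in Monocyte_1 in either library.

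When every cell was thinned to 2000 UMIs, Ly6i was seen in 25.9% of NTT and 11.2% of RTT Monocyte_1 cells (40.1% and 22.2% unthinned). In NK cells, with median depths of 5358.5 and 3967 UMIs, it was seen in 0 of 164, which allows up to 1.83%, and in 2.44%. Cfb was seen in 49.5% and 21.4% of Monocyte_1 cells (68.8% and 34.3% unthinned), beside 2.44% of NTT NK cells and 0 of 41 in RTT, which allows up to 7.32%. The shares of both genes were above the NK cell level in each library. H2-Q7 was seen in 62.0% and 15.3% of Monocyte_1 cells (79.7% and 27.3% unthinned), Il1r2 in 75.1% and 18.4% (85.2% and 28.3%) and Plac8 in 85.2% and 51.0% (90.4% and 56.6%). NK cells carried these 3 genes in 24.4% to 85.4% of cells and are no null for them. NK cells are here the cells labelled NK_cells, and whether T cells also lie under that label was not settled. Macrophages, which were deeper, are given instead, at 26.2% and 4.77% for H2-Q7, 13.7% and 4.87% for Il1r2 and 49.3% and 4.29% for Plac8. Each of the 5 markers was seen in a smaller share of Monocyte_1 cells in RTT than in NTT.

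Monocyte_1 and Infl_Mono were next set side by side within each library. A gene was compared when both labels were expected to hold at least 20 UMIs of it at a common level, and a difference of at least 2-fold was counted. In NTT, 7791 genes were compared, 389 (4.99%) were at least 2-fold higher in Monocyte_1 and 389 (4.99%) at least 2-fold lower. In RTT, with 3627 genes, 82 (2.26%) were higher and 272 (7.5%) lower. The NTT split depended on scaling, being 297 higher and 465 lower with TMM (trimmed mean of M values) and 273 and 494 with DESeq2 size factors. These scalings moved the median of all genes by −0.10 and −0.13 on the log2 scale. Of 3625 genes compared in both libraries, 17 were at least 2-fold higher and 96 at least 2-fold lower in both, and 22 were 2-fold apart in opposite directions.

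The antiviral interferon-stimulated genes, which encode inhibitors of viral RNA and translation, were lower in Monocyte_1 in both libraries when all cells were summed. Of 35 listed genes, 34 were compared in NTT, of which 27 were at least 2-fold lower and 0 higher, with a median log2 ratio of −1.59 beside 0.10 for all genes. In RTT, 24 of 30 were at least 2-fold lower and 0 higher, with a median of −1.98 beside −0.04. Much of the RTT difference was lost without cells high in C1q or other-lineage markers, a setting described below. Of 17 genes then compared in RTT, 3 were at least 2-fold lower and 7 lay above 0 (median −0.42). Isg15, a ubiquitin-like modifier whose promoter above carries the response element, was at 1360.2 CPM in Monocyte_1 and 5246 in Infl_Mono of NTT. In RTT its levels were 660.2 and 2792 CPM. The log2 ratios were −1.95 (−1.99 to −1.91) and −2.08 (−2.25 to −1.91), so for Isg15 over all cells the distance between the labels was alike in both libraries.

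Ifit1, an RNA-binding translation inhibitor at 19:34640871-34650009, was at 110.0 CPM in Monocyte_1 and 1100.0 in Infl_Mono of NTT, and at 66.6 and 1404 in RTT (log2 −3.32 and −4.40). Its relative Ifit2 was at 133 and 1067 CPM in NTT and at 43.8 and 830.4 in RTT. Cmpk2, a mitochondrial nucleotide kinase, was at 9.97 and 235 CPM in NTT, and 3 UMIs remained in RTT Monocyte_1. Usp18, which removes ISG15 from proteins, had log2 ratios of −2.61 and −3.35, and Ifit1bl1 of −3.36 and −4.26. Ifit3b had −3.75 in NTT, and in RTT 1 UMI in Monocyte_1. Ifit3 had −3.12 and −4.18, with 27 of its 411 tested 3′ windows (6.57%) shared with Ifit3b, so part of its count could belong to either gene. Rsad2 (viperin) had −4.80 and −2.88, where 48.2% of the RTT Monocyte_1 UMIs came from 1 cell. Irf7, the transcription factor that amplifies type I interferon, was less far apart, at −0.80 and −0.70.

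Fewer of the genes mainly induced by interferon-γ were 2-fold apart. Of 27 listed, 26 were compared in NTT, of which 0 were at least 2-fold higher and 5 lower (median −0.56; 8 lower with TMM and 10 with DESeq2 size factors), and of 19 in RTT, 2 were higher and 4 lower (median −0.47). Cxcl9, which attracts T cells, went the other way from the antiviral genes. It was at 731 CPM in Monocyte_1 and 498 in Infl_Mono of NTT, and at 1163 and 79.8 in RTT (log2 0.55 and 3.86 [3.44 to 4.32]). Its neighbour Cxcl10, which type I interferon also induces, was at 429 and 1916 CPM in NTT and at 537 and 4588 in RTT (log2 −2.16 and −3.10). Monocyte_1 was thus the higher label for one ligand of CXCR3 and the lower label for the other. Gbp2, a guanylate-binding protein, had log2 ratios of −0.99 and 0.42.

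MHC class II genes, which present peptides to CD4+ T cells, were higher in Monocyte_1 in both libraries and more so in RTT. All 10 listed were compared in NTT, of which 5 were at least 2-fold higher and 0 lower (median 0.94). Of 9 in RTT, 7 were at least 2-fold higher and 0 lower (median 2.74). H2-Ab1, at 17:34257689-34269419, was at 11334 CPM in Monocyte_1 and 4742 in Infl_Mono of NTT, and at 11264 and 1686 in RTT, where NK cells had 282. The log2 ratios were 1.26 (1.23 to 1.28) and 2.74 (2.64 to 2.84). In RTT, Infl_Mono was low, while Monocyte_1 stood at about the same level in both libraries.

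Other class II genes were likewise higher in Monocyte_1 than in Infl_Mono. H2-Aa was at 12680.5 and 5351 CPM in Monocyte_1 and Infl_Mono of NTT and at 13844 and 1907 in RTT. H2-Eb1 was at 9616 and 3809 CPM in NTT and at 10399.9 and 1297 in RTT. H2-DMb2, a chain of the peptide-loading complex, was at 53.2 and 23.2 CPM in NTT and at 118 and 40.8 in RTT. Of its RTT Monocyte_1 UMIs, 30.6% came from 1 cell. Cd74, the invariant chain, was at 6112 and 2758 CPM in NTT and at 9730.1 and 1448 in RTT. Ciita, the class II transactivator, had 68 UMIs in RTT Monocyte_1 and 1 in RTT Infl_Mono, a log2 ratio of 6.25 (3.72 to 11.58), and 0.85 in NTT. Few MHC class I genes separated the labels by 2-fold. Of 18 listed, 16 were compared in NTT, of which 0 were at least 2-fold higher and 1 lower, with a median of 0.06 that became −0.03 with TMM and −0.06 with DESeq2 size factors, and of 12 in RTT, 1 was higher and 0 lower (median 0.51).

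**Figure D2:**
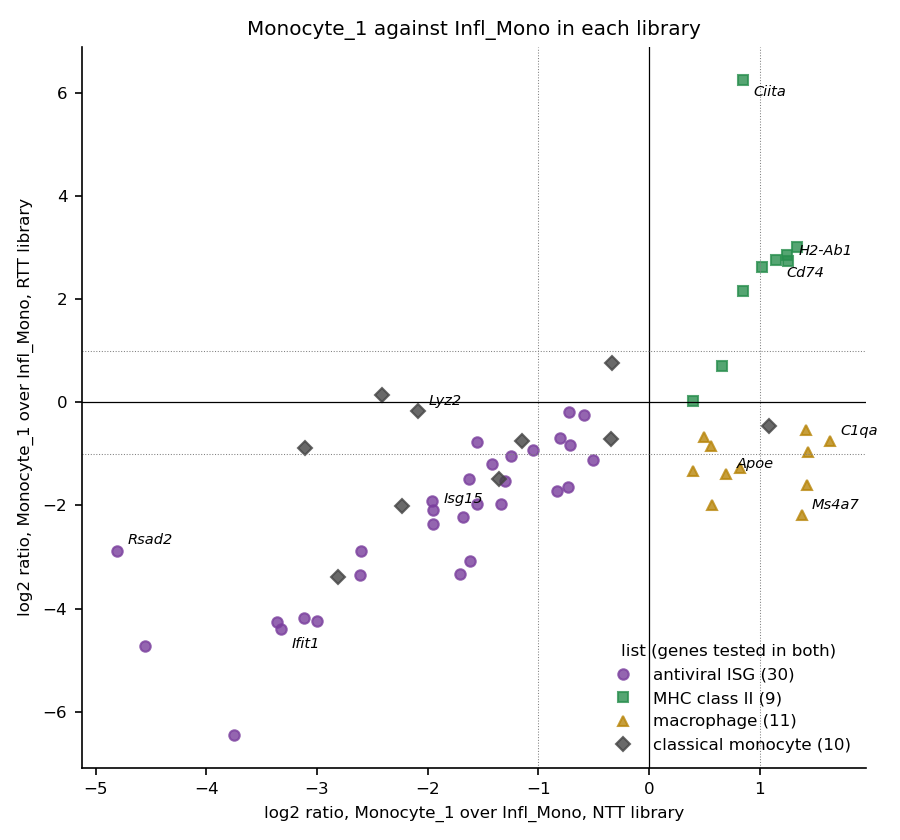
Log2 ratio of Monocyte_1 over Infl_Mono in NTT (horizontal axis) against RTT (vertical axis), 1 point per gene of the antiviral, MHC class II, macrophage and classical monocyte lists compared in both libraries, with dotted lines at 2-fold. The antiviral genes lie at lower left (medians −1.59 and −1.98), the class II genes at upper right (0.94 and 2.74), and the macrophage genes right of 0 in NTT and below 0 in RTT.

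Genes of classical monocytes were lower in Monocyte_1 than in Infl_Mono in NTT. Of 11 listed, 10 were compared there, of which 1 was at least 2-fold higher and 7 lower (median −1.72), and of 10 in RTT, 0 were higher and 3 lower (median −0.73). Ly6c2 was not analysed here. Hp, haptoglobin, was at 175 and 818 CPM in NTT and at 101 and 409 in RTT. It was lower in Monocyte_1 in each library.

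Lyz2, lysozyme, separated the labels in NTT alone, at 3466 and 14734 CPM there against 12814 and 14449 in RTT. Chil3, a chitinase-like protein, was at 138 and 1194 CPM in NTT and at 342 and 632 in RTT. Vcan, versican, was at 106 and 562 CPM in NTT and at 232 and 211 in RTT. Ccr2, which marks monocytes newly arrived from blood, was among the nearest to equal in NTT (1247 and 1569.9 CPM) and was higher in Monocyte_1 in RTT (1294 and 764). C5ar1, the receptor for complement C5a, was the list member above 2-fold in NTT, at 1.08 there and −0.46 in RTT.

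The macrophage genes turned around between the libraries. Of 13 listed, 12 were compared in NTT, of which 5 were at least 2-fold higher in Monocyte_1 than in Infl_Mono and 0 lower (median 0.76). Of 12 in RTT, 0 were higher and 7 lower (median −1.31). C1qa, a chain of the complement recognition protein C1q, was at 4257 CPM in Monocyte_1 and 1367 in Infl_Mono of NTT, and at 3765 and 6375 in RTT, where NK cells had 814. Apoe, an apolipoprotein of lipid-handling macrophages, was at 4653 and 2865 CPM in NTT and at 4699.5 and 12389 in RTT. Ms4a7 was at 656 and 252 CPM in NTT and at 628 and 2869.8 in RTT. As with class II, the Monocyte_1 levels of these 3 genes were alike in the 2 libraries and the Infl_Mono levels were not.

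Without cells whose summed C1q or other-lineage markers passed 5000 CPM, 377 Monocyte_1 and 464 Infl_Mono cells were left in NTT and 51 and 48 in RTT. Cells with a macrophage label were not left out for C1q in this setting. The antiviral genes were then still lower in NTT Monocyte_1 (19 of 34 at least 2-fold lower, median −1.12). In RTT only 17 could be compared, 3 were at least 2-fold lower and 7 lay above 0 (median −0.42), Rsad2 being at 0.045. The class II difference was larger without these cells, with 7 of 10 at least 2-fold higher in NTT (median 1.41) and 6 of 8 in RTT (median 3.51). The macrophage list had a median of 0.48 in RTT. The cells were chosen by C1q, whose genes are on the macrophage list, and fewer genes were compared (7 macrophage genes in RTT), so these medians are over other genes than those above.

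Signalling and metabolic genes were described by further lists. Chemokine genes were higher for 2 and lower for 6 of 15 in NTT (median −0.29) and higher for 1 and lower for 8 of 13 in RTT (median −1.76). Without C1q-bearing and other-lineage cells, 2 of 7 were higher and 1 lower in RTT (median −0.75). Ccl12, a monocyte attractant, was at 333 CPM in RTT Monocyte_1 and 6381 in RTT Infl_Mono, and at 608 and 495 in NTT. Ccl7 was at 228 and 2141 CPM in RTT and Ccl2 at 226 and 1413. Early-response genes, which tissue dissociation also induces, were at least 2-fold lower for 3 of 12 in NTT (median −0.47) and 1 of 10 in RTT (median −0.41), and their part in the other differences was not tested. Of 13 hypoxia and glycolysis genes in NTT, 1 was at least 2-fold higher and 0 lower (median 0.27), and of 10 in RTT, 0 were in either direction (median −0.08). Interleukin-1 genes lay near 0 (medians −0.02 and −0.09), Il1r2 being the member at least 2-fold higher in both libraries (log2 1.05 and 2.06), though with TMM or DESeq2 size factors 0 of the list were 2-fold higher in NTT.

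The genes with the greatest excess in Monocyte_1 over Infl_Mono in both libraries included Mgl2, a C-type lectin of dendritic cells and macrophages at 11:70130329-70137550. It was at 45.04 CPM in Monocyte_1 and 2.54 in Infl_Mono of NTT, and at 478 and 57.7 in RTT (log2 4.15 and 3.05). At 2000 UMIs per cell, Mgl2 was seen in 2.87% of NTT and 24.5% of RTT Monocyte_1 cells, in 0 of 164 (which allows up to 1.83%) and 2.44% of NK cells, and in 11.9% and 78.7% of cDC2. Mmp12, macrophage elastase, was at 46.5 and 14.95 CPM in NTT and at 202 and 40.8 in RTT. Klrb1b, a lectin-like receptor, was at 293 and 105 CPM in NTT and at 141 and 40.8 in RTT. These excesses were well past counting error. Eva1b (log2 1.26 and 1.75) and the ubiquitin hydrolase gene Uchl3 (1.34 and 1.21) followed. Ighm, the IgM heavy chain, ranked among them with 2.48 in NTT, but 94.1% of its NTT Monocyte_1 UMIs came from 1 cell, and the ratio was −1.25 without cells carrying B cell or other lineage markers. Among the lower genes outside the interferon lists was Cd69 (−2.99 and −3.09), an early activation antigen, which in RTT was at 0.14 without the C1q-bearing and other-lineage cells.

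Against the pooled macrophages, 8925 genes were compared in NTT, of which 226 (2.53%) were at least 2-fold higher in Monocyte_1 and 889 (9.96%) lower. In RTT, 3989 were compared, 110 (2.76%) were higher and 412 (10.3%) lower. The medians over all genes were −0.18 and −0.21. With TMM the splits were 325 higher and 697 lower in NTT and 165 and 297 in RTT, and with DESeq2 size factors 332 and 686, and 167 and 293. The median of all genes was moved by 0.17 and 0.18 in NTT and by 0.22 and 0.24 in RTT. In both libraries 37 of 3983 genes were at least 2-fold higher, 181 at least 2-fold lower and 3 in opposite directions. The macrophages had deeper cells, as given above, and in RTT they were mostly other labels than in NTT.

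Cell-cycle genes were lower in Monocyte_1 than in macrophages, for 13 of 14 by at least 2-fold in NTT (median −3.84) and for 11 of 14 in RTT (median −2.49). Mki67, a proliferation antigen, was at 11.8 CPM in Monocyte_1 and 128 in macrophages of NTT and at 13.3 and 169 in RTT. Tk1, thymidine kinase, had a log2 ratio of −5.16 in NTT and 1 UMI in RTT Monocyte_1, and Cenpf, a kinetochore protein gene, had ratios of −4.56 and −4.24. Pclaf (−5.17 and −3.69) and Prc1 (−3.92 and −3.67), which act in DNA replication and cytokinesis, also ranked among the lowest, and Nusap1, a spindle protein gene, was at −5.25 in NTT with 0 UMIs in RTT Monocyte_1. One of the pooled labels was TAM_cycling. Against TAM_Spp1 alone, Tk1, Cenpf and Pclaf were higher in NTT Monocyte_1 (1.51, 1.06 and 0.72), and in RTT Pclaf (1.66) and Prc1 (0.39) were, so their direction rested on which macrophages were used.

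Macrophage genes were lower in Monocyte_1 by at least 2-fold for 6 of 13 in NTT (median −1.0) and 11 of 12 in RTT (median −1.59), and 0 were higher in either. Fcrls, an Fc-receptor-like gene of resident macrophages, was at 9.23 CPM in Monocyte_1 and 144 in macrophages of NTT and at 108 and 2749.8 in RTT. Folr2, a folate receptor of tissue macrophages, had log2 ratios of −3.77 and −5.46, Cbr2, a carbonyl reductase, of −4.79 and −4.57, Gas6, the ligand of AXL and MERTK, of −3.70 and −4.81, and Serpinb6a of −3.79 and −5.05, though the last was at 0.80 in NTT against TAM_Spp1 alone. C1qa, at 7165 CPM in NTT and 7859.6 in RTT macrophages, was above Monocyte_1 by less than this. Fcrls, Folr2 and Cbr2 were named for being among the 10 lowest ratios, so their greater distance than that of C1qa follows from the choice.

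The same comparison placed Monocyte_1 above the macrophages in antigen presentation and interferon genes. Class II genes were at least 2-fold higher for 4 of 10 in NTT (median 0.90) and 6 of 8 in RTT (median 2.14), with 0 lower. Class I genes were at least 2-fold higher for 3 of 16 in NTT (median 0.47) and 9 of 11 in RTT (median 1.10). Interferon-γ-induced genes were at least 2-fold higher for 12 of 26 (median 0.95) and for 6 of 8 (median 2.33). Antiviral genes were at least 2-fold higher for 10 and lower for 3 of 34 in NTT (median 0.54), and higher for 7 of 7 in RTT (median 2.54). Leaving out C1q-bearing and other-lineage cells was one-sided here, as macrophages were not left out for C1q. It kept 51 Monocyte_1 cells and 4000 macrophages in RTT. In that setting, 3 of 8 class I genes (median 0.96) and 0 of 2 interferon-γ-induced genes (median 0.30) were at least 2-fold higher. No antiviral gene then had enough counts to be compared. By its antiviral list medians over all cells Monocyte_1 stood between the macrophages and Infl_Mono in both libraries.

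Of single genes, Ifitm1, an antiviral membrane protein, was at 14713 CPM in Monocyte_1 and 1988 in macrophages of NTT and at 3231 and 666 in RTT. Ly6a, the antigen Sca-1, was at 4524 and 1270.0 CPM in NTT and at 2209 and 243 in RTT. Gbp2 (1.76 and 3.46 on the log2 scale), Ms4a4c (1.77 and 3.57) and Ccl5, a T cell attractant (2.86 and 1.91), were higher in Monocyte_1 as well. So were Napsa, an aspartic protease (1.93 and 2.84), Tnfaip2 (1.73 and 2.03) and S100a11 (1.67 and 2.23), but against TAM_Spp1 alone Tnfaip2 (−0.20) and S100a11 (−0.027) were not higher in NTT. Of the given markers, Il1r2 (3.66 and 2.42) and Plac8 (2.09 and 5.30) were in this group, Il1r2 being at −0.28 in RTT against TAM_Spp1 alone. Il1b, the pro-inflammatory cytokine, was at 3229 and 1532 CPM in NTT and at 2403 and 962 in RTT. Chemokines were lower in Monocyte_1 for 12 of 16 in NTT (median −1.83) and 7 of 13 in RTT (median −1.56), and higher for 3 and 4.

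Between the libraries, 3676 genes were compared in Monocyte_1, of which 83 (2.26%) were at least 2-fold higher in RTT and 348 (9.47%) lower. In Infl_Mono, 3968 were compared, 236 (5.95%) were higher and 377 (9.5%) lower. With other scalings the Infl_Mono split was 162 and 517 (TMM) or 180 and 483 (DESeq2), which moved the median of all genes by −0.12 and −0.09. Without C1q-bearing and other-lineage cells it was 17 higher and 206 lower of 1672. The median over all genes was −0.05 in Monocyte_1 and −0.04 in Infl_Mono. The smaller UMI sum of RTT Monocyte_1 limits this comparison to genes of moderate level.

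Of the given markers, 4 of 5 were at least 2-fold lower in RTT Monocyte_1 (median −1.53) and 5 of 5 in RTT Infl_Mono (median −3.06). H2-Q7 had a log2 ratio of RTT over NTT of −2.96 (−3.40 to −2.55) in Monocyte_1 and −3.06 in Infl_Mono, and Il1r2 of −2.64 (−2.90 to −2.39) and −3.65. Ly6i was the marker nearest to its NTT level, at −0.69 (−1.07 to −0.33) in Monocyte_1 against −3.33 in Infl_Mono, a difference of 2.64 (1.74 to 3.54). For H2-Q7 the difference between the labels was 0.10 (−0.59 to 0.79) and was within counting error.

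Most MHC class II genes were near their NTT level in RTT Monocyte_1. Of 9 listed class II genes, 0 were 2-fold apart between the libraries in Monocyte_1 (median 0.13), whereas 5 of 9 were at least 2-fold lower in RTT Infl_Mono (median −1.23). H2-Ab1 had a log2 ratio of −0.01 (−0.05 to 0.03) in Monocyte_1 and −1.49 (−1.59 to −1.40) in Infl_Mono, which differed by 1.48 (1.38 to 1.58). Cd74 was at 0.67 and −0.93. H2-DMb2, which was not on the list, was higher in RTT Monocyte_1 (1.15 [0.73 to 1.55]), where 30.6% of its UMIs came from 1 cell. Cxcl9 was higher in RTT Monocyte_1 (0.67 [0.54 to 0.79]) and lower in RTT Infl_Mono (−2.64 [−3.09 to −2.22]), which differed by 3.31 (2.87 to 3.75). At 2000 UMIs per cell, Cxcl9 was seen in 17.2% of NTT (14.9 to 19.8) and 23.5% of RTT (15.5 to 33.1) Monocyte_1 cells. These intervals overlapped. In NK cells the shares were 1.83% and 2.44%. By summed counts, Monocyte_1 of the RTT library thus held Cxcl9 above and most class II genes near or above the NTT level. Of the 9 class II genes, 3 lay below it, the lowest at −0.52. In Monocyte_1 cells with fewer than 5 UMIs of C1qa, C1qb and C1qc, the median class II sum was 79 in NTT and 57 in RTT. With 20 or more of these UMIs it was 121 and 133.

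Antiviral genes were lower in RTT in both labels, with 1 at least 2-fold higher and 12 lower of 29 in Monocyte_1 (median −0.87) and 7 of 33 lower in Infl_Mono (median −0.48). Without C1q-bearing and other-lineage cells the order of the labels turned, with 8 of 22 lower in Monocyte_1 (median −0.66) and 24 of 31 in Infl_Mono (median −1.45). Isg15 had log2 ratios of −1.04 and −0.91, which differed by −0.13 (−0.30 to 0.04), within counting error. The higher gene in Monocyte_1 was Rsad2 (1.47), of which 48.2% of UMIs came from 1 RTT cell. Interferon-γ-induced genes were at least 2-fold lower for 7 of 24 in Monocyte_1 (median −0.74), and class I genes for 2 of 14 (median −0.51), beside 9.47% of all genes compared. Per cell, the interferon-γ list held a median of 0.35% of UMIs in NTT and 0.3% in RTT. The interval of the RTT median (0.2 to 0.4) was taken over cells, which are not replicates, and is not one of counting error. The antiviral list held 0.65% and 0.3%, and the class I list 1.85% and 1.2%. Cd274, the checkpoint ligand PD-L1, was at 160.4 CPM in NTT and 43.8 in RTT Monocyte_1 (log2 −1.87). By the medians of summed-count ratios, the antiviral, interferon-γ and class I lists were lower in RTT Monocyte_1 while the class II list was not. The per-cell medians were lower in RTT for the antiviral and class I lists and close together for the interferon-γ list.

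**Figure D3:**
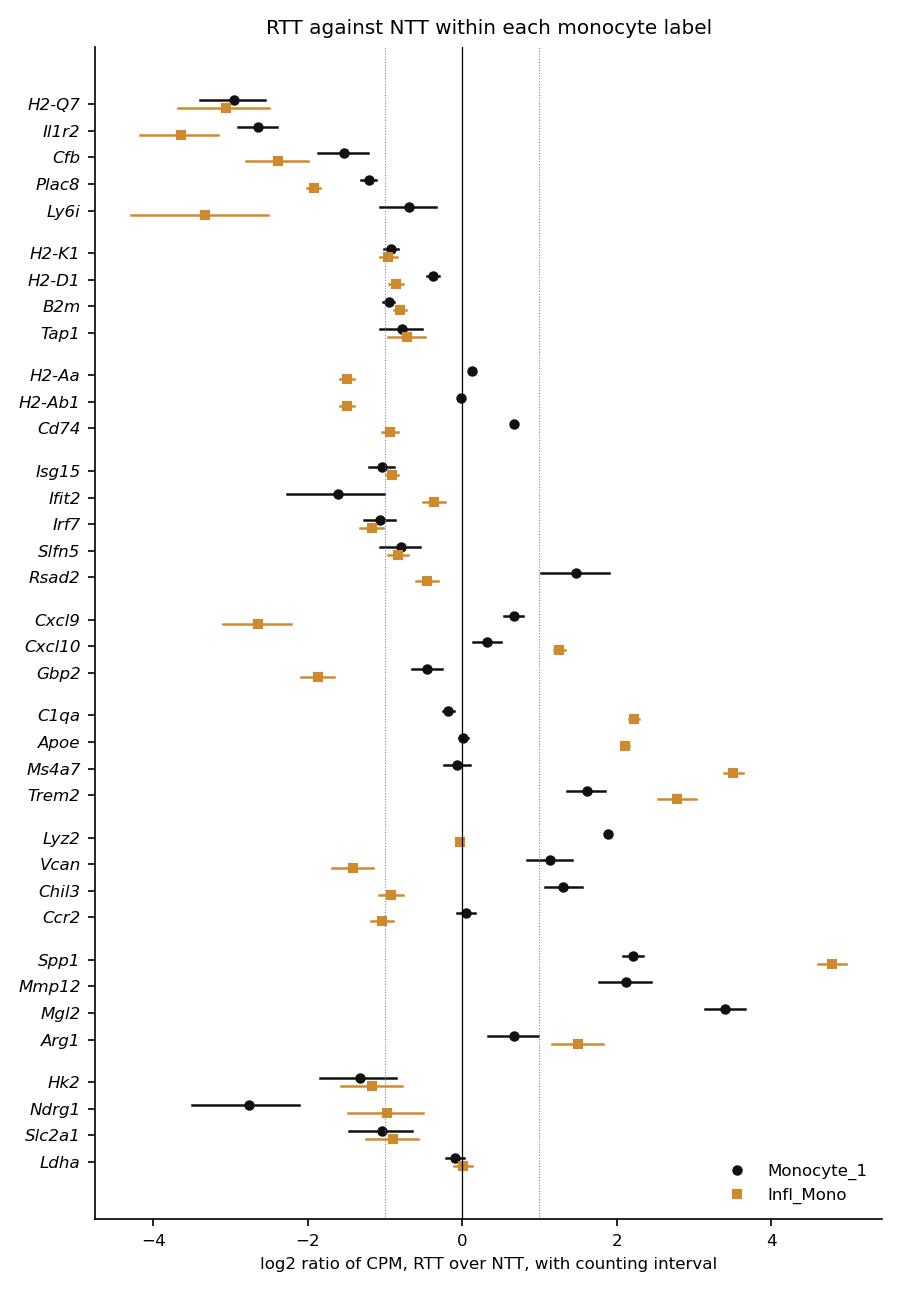
Log2 ratio of CPM in RTT over NTT within Monocyte_1 (circles) and within Infl_Mono (squares), with counting intervals and dotted lines at 2-fold; Mgl2 and Mmp12 were compared in Monocyte_1 alone. H2-Ab1 lies at −0.01 in Monocyte_1 and −1.49 in Infl_Mono, and C1qa at −0.18 and 2.22.

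Genes of hypoxia and glycolysis were lower in RTT Monocyte_1 for 8 of 12 by at least 2-fold (median −1.35), and for 6 of 12 in Infl_Mono (median −0.99). Ndrg1, a gene induced by low oxygen, was at 245 CPM in NTT and 36.2 in RTT Monocyte_1 (log2 −2.76 [−3.50 to −2.11]). Bnip3, a mitophagy receptor, was at 285 and 81.8 CPM, and the hexokinase gene Hk2 at 182 and 72.3. Slc2a1, the glucose transporter GLUT1, was at 211 and 103 CPM, but Ldha, lactate dehydrogenase, was at 1384 and 1299.5. The list was lower with the exception of members such as Ldha. Without C1q-bearing and other-lineage cells it was at least 2-fold lower for 6 of 11 (median −1.25).

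The macrophage list had 2 of 10 genes at least 2-fold higher and 0 lower in RTT Monocyte_1 (median −0.02), against 12 of 12 higher in RTT Infl_Mono (median 2.17). Without cells chosen by C1q and other-lineage markers, 0 of 6 were higher and 1 lower in RTT Infl_Mono (median −0.19). C1qa had log2 ratios of −0.18 and 2.22, and Apoe of 0.01 and 2.11. Of classical monocyte genes, 3 of 10 were at least 2-fold higher and 1 lower in RTT Monocyte_1 (median −0.18). The higher genes were Lyz2 (1.89 [1.85 to 1.93], and −0.03 in Infl_Mono), Chil3 (1.31 and −0.92) and Vcan (1.14 and −1.42). Lyz2, Chil3 and Vcan were also among the genes lower in Monocyte_1 than in Infl_Mono in NTT.

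Genes with the largest ratios in RTT over NTT Monocyte_1 included Mgl2 (3.41), Spp1, osteopontin (2.21, and 4.79 in Infl_Mono), Mmp12 (2.12), and the adaptor gene Dok2 (2.04 and −0.68). Spp1 was at 269 CPM in NTT and 1248 in RTT Monocyte_1, and at 3018 in RTT macrophages. Of its RTT Monocyte_1 UMIs 32.6% came from 1 cell, and at 2000 UMIs per cell Spp1 was seen in 12.3% of NTT and 37.8% of RTT Monocyte_1 cells, beside 6.1% and 17.1% of NK cells. The tetraspanin gene Cd9 (1.99), the ADP/ATP carrier Slc25a4 (2.32), the lamin gene Lmna (2.29), Gtpbp4 (1.89) and Ybx3 (1.87) completed the highest 10 with Lyz2. At the other end, Mmp13, a collagenase, went from 607 UMIs in NTT to 1 in RTT Monocyte_1 (log2 −5.88). Slfn4, an interferon-responsive myeloid gene, had −4.85, H2-Q6, a neighbour of H2-Q7 and partly shared with H2-Q4, −4.16, and the transporter Abcb1a −3.91. Ocstamp (−3.53), Adgrg5 (−3.31) and Mylip (−3.22) were also in the lowest 10. Saa3, serum amyloid A3, had 506 UMIs in NTT and 0 in RTT Monocyte_1. S100a9, an alarmin of neutrophils (−3.77), went from 281 to 2 UMIs in Monocyte_1. Jchain had 0 UMIs in RTT, and 99.5% of its NTT UMIs came from 1 cell.

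Within the label, cells differed widely in C1q. In NTT Monocyte_1 cells thinned to 2000 UMIs, 325 of 941 (34.5%) had fewer than 5 UMIs of C1qa, C1qb and C1qc together, 155 (16.5%) had 5 to 19 and 461 (49.0%) had 20 or more. In RTT the numbers were 46 (46.9%), 13 and 39 (39.8%) of 98 cells. Of NK cells, 0 of 164 in NTT, which allows up to 1.83%, and 3 of 41 in RTT had 20 or more, against 62.3% and 82.6% of macrophages. The bounds of 5 and 20 were set after the distribution was seen and mark ranges, not cell types. Median depths before thinning were 4489, 5226 and 5688 UMIs in the 3 NTT ranges and 3780, 4759 and 6593 in the RTT ranges.

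Class II was higher in cells with more C1q. The median summed class II UMIs per cell were 79, 104 and 121 over the 3 NTT ranges and 57, 154 and 133 over the RTT ranges. Plac8 went the other way, with medians of 12, 9 and 3 in NTT and 4, 0 and 0 in RTT. Antiviral genes had medians of 16, 13 and 12 in NTT and 8, 4 and 4 in RTT. In these cells C1q and class II had a Spearman correlation of 0.32 in NTT (941 cells) and 0.47 in RTT (98 cells), and C1q and Plac8 of −0.45 and −0.59, over cells that share a library. The label therefore spanned cells from high Plac8 and low C1q to the reverse in each library.

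**Figure D4:**
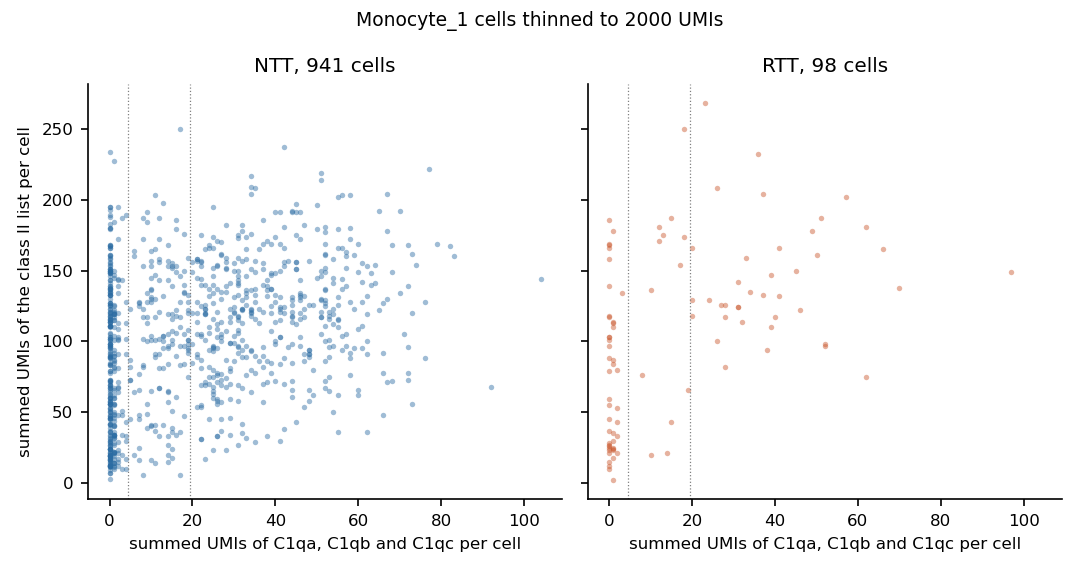
Summed UMIs of C1qa, C1qb and C1qc (horizontal axis) against summed UMIs of the class II list (vertical axis) in each Monocyte_1 cell thinned to 2000 UMIs, in NTT (941 cells) and RTT (98 cells), with dotted lines between the ranges of under 5, 5 to 19 and 20 or more. Cells ran from 0 C1q UMIs to above 90, and class II medians are 79, 104 and 121 in NTT and 57, 154 and 133 in RTT over the ranges.

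Infl_Mono cells in the same C1q range differed from Monocyte_1 in NTT. Among cells with fewer than 5 C1q UMIs, the median antiviral sum was 16 in Monocyte_1 and 29 in Infl_Mono (432 cells), and the median class II sum was 79 and 16. With 20 or more, the antiviral medians were 12 and 56 (108 Infl_Mono cells) and the class II medians 121 and 111. In RTT the antiviral medians at low C1q were 8 in both labels, whereas the class II medians were 57 and 13, and at 20 or more the antiviral medians were 4 and 35. In RTT the antiviral medians of the labels were thus equal at low C1q and 4 against 35 at 20 or more C1q UMIs.

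The place of Monocyte_1 cells among all cells was described by the 30 nearest cells of the same library in 30 principal components. In NTT 86.2% of the neighbours were Monocyte_1 cells, which were 33.1% of cells, 6.85% were Infl_Mono and 3.13% TAM_Spp1. For 887 of 984 cells (90.1%) most neighbours shared the label. In RTT 29.9% of neighbours were Monocyte_1 (2.05% of cells), 44.1% were TAM_Spp1 (14.9% of cells), 9.53% TAM_C1q (41.3% of cells) and 5.19% Infl_Mono (1.94% of cells). Smaller labels were TAM_H2Ab1, with 4.48% of neighbours (0.74% of cells), and Macro, with 1.92% (0.54% of cells). Read against these shares, TAM_Spp1 and Infl_Mono neighbours exceeded their share of RTT cells by a similar factor. TAM_H2Ab1 and Macro neighbours exceeded theirs by a larger factor in RTT. There, 16 of 99 cells (16.2%) had mostly neighbours of their own label, against 72 of 94 (76.6%) for RTT Infl_Mono, a label of similar size. With 15 components the count was 21 of 99 (21.2%), and with both libraries placed together 24 of 99 (24.2%).

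**Figure D5:**
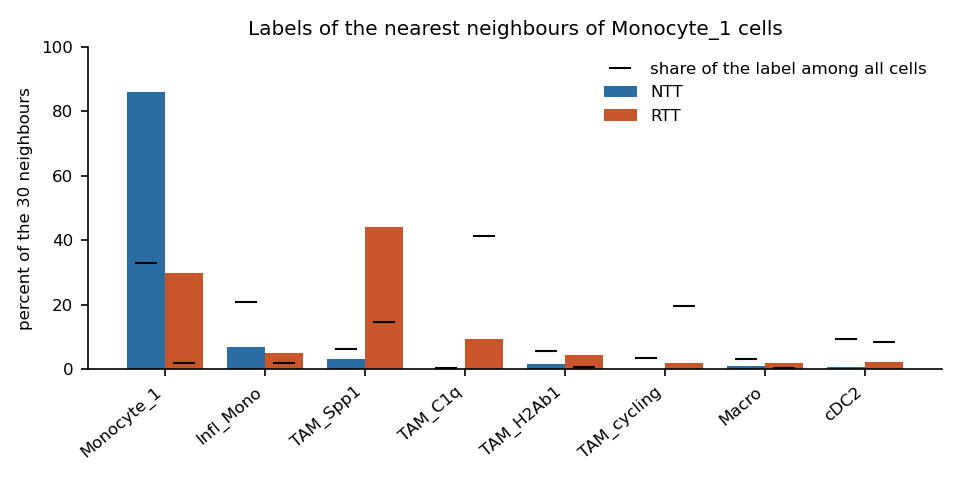
Percent of the 30 nearest neighbours of Monocyte_1 cells (vertical axis) that carry each label, within NTT (blue) and within RTT (orange), with a line for the share of that label among all cells of the library. Own-label neighbours are 86.2% in NTT and 29.9% in RTT, where TAM_Spp1 provides 44.1%.

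Summed profiles were compared in the same way. Over 3386 genes, the NTT Monocyte_1 profile had a Pearson correlation of 0.938 with NTT Infl_Mono, 0.914 with RTT Monocyte_1 and 0.882 with NTT TAM_Spp1. The RTT Monocyte_1 profile had 0.940 with RTT TAM_Spp1, 0.914 with NTT Monocyte_1 and 0.912 with RTT Infl_Mono. These are correlations across genes, which are not independent replicates, and profiles of one library share its background. Of the neighbours of RTT Monocyte_1 cells with fewer than 5 C1q UMIs, 51.8% were TAM_Spp1, and of those of cells with 20 or more, 32.7% were TAM_Spp1 and 22.1% TAM_C1q. By summed profile, RTT Monocyte_1 was nearer to TAM_Spp1 than to Infl_Mono of its library, where NTT Monocyte_1 was nearer to Infl_Mono. In each library the nearer label also had the larger UMI sum. These sums were 4359475 (TAM_Spp1) and 588902 (Infl_Mono) in RTT, and 1028355 and 3143601 in NTT. The part of depth in the correlations was not tested. The name Monocyte_1 is kept here as the depositors gave it.

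Markers of T, NK, B and plasma cells and of neutrophils were sparse. T and NK cell markers passed 5000 CPM in 0 of 984 NTT and 0 of 99 RTT Monocyte_1 cells, which allows up to 0.305% and 3.03%, neutrophil markers likewise in 0 and 0, and B and plasma cell markers in 1 and 0. Of 10 listed dendritic genes, Flt3 had 9 and 0 UMIs in the summed label, Zbtb46 3 and 0, Xcr1 1 and 0 and Clec9a 0 and 0. Cd209a had 55 and 23, from sums of 5417042 UMIs in NTT and 525584 in RTT. Against Infl_Mono, 1 of 6 dendritic genes compared in NTT was at least 2-fold higher and 2 lower. In RTT 1 of 2 was higher and 0 lower. The higher gene was Klrb1b in both libraries (log2 1.48 and 1.79). C1q genes passed 5000 CPM in 606 of 984 (61.6%) NTT and 48 of 99 (48.5%) RTT Monocyte_1 cells, beside 0 of 178 NK cells, which allows up to 1.69%, and 5.88%.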

How the data were processed

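The data were 10x 3′ single-cell libraries of sorted CD45+ cells from NTT and RTT tumour, 1 library each. Per the submitters’ processing notes, the authors counted UMIs with Cell Ranger 6.1.1 on mm10. They kept cells by genes detected and by mitochondrial and ribosomal content, and clustered and named the cells on a joint map. The deposited table held UMI counts of 12584 genes in 7815 cells with a label for each cell. Genes outside that table, such as Ly6c2, Cx3cr1 and Mx1, were not analysed here, and 0 columns of other samples were present.

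Members and gene lists were chosen with earlier results of these data known. The study named its labels on these cells, so its markers are not independent of them. UMIs were summed per label and library and scaled to CPM. Log2 ratios had exact binomial 95% intervals. A gene entered when both groups were expected to hold at least 20 UMIs, 2-fold was the size counted, and 0 UMIs were set to 3 for bounds. With 1 library per group there was no test between conditions, and intervals cover counting error only. The sum over 99 cells gives RTT Monocyte_1 far less depth than NTT.

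Genes named were the 5 given markers, the 10 genes in each direction with the largest ratio in the library where it was smaller (same sign in both libraries), the 10 in each direction between libraries, and list members described by role. Some genes that this rule names are not reported here. Cells were thinned to 2000 UMIs for per-cell sums, leaving out shallower cells (43 NTT and 1 RTT Monocyte_1 cells). Neighbours were the 30 nearest in 30 principal components of 3000 variable genes. No doublet caller was run, and an alternative left out cells with other-lineage or C1q genes over 5000 CPM. In it, cells with a macrophage label were not left out for C1q. The ratio code was tested on simulated data. Promoters came from RefSeq (GRCm38.p6) and gene positions from an mm10 annotation, and protein sequences were not used here. Tools were Python 3.11.15, numpy 2.4.6, scipy 1.17.1, pandas 2.3.3, scanpy 1.11.5, scikit-learn 1.9.0, R 4.3.3 and edgeR 4.0.16.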

Additional observations from a re-analysis of the deposited data

Results flagged for a closer look

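Genes are listed here when they lay at least 2-fold apart in opposite directions under the same contrast in 2 libraries or 2 labels. With 1 library per group these differences were not tested, and each value is a log2 ratio from summed counts.

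For Monocyte_1 over Infl_Mono in NTT and then RTT, Folr2 was at 3.44 and −5.05 (difference 8.48) and Mmp13, a collagenase with 1 UMI in RTT Monocyte_1, at 1.46 and −5.42 (6.88). Ms4a7 was at 1.38 and −2.19 (3.57), the tetraspanin gene Cd63 at 1.38 and −2.18 (3.56), the platelet-factor chemokine Pf4 at 1.43 and −1.61 (3.04) and Ccl8 at 1.03 and −1.76 (2.79). Spp1 was at 1.53 and −1.05 (2.58) and Fcgrt, the neonatal Fc receptor, at 1.04 and −1.36 (2.40). All 8 were the higher gene of Monocyte_1 in NTT and of Infl_Mono in RTT, where 48.9% of Infl_Mono cells carried C1q over 5000 CPM, against 24.5% in NTT. The part of those cells in these values was not tested.

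For Monocyte_1 over macrophages, Spp1 was at 1.75 and −1.27 (3.02), Ccl6 at −2.10 and 1.61 (−3.70) and the matrix protein gene Thbs1 at −1.25 and 1.73 (−2.98). The macrophages of the libraries carried different labels. For RTT over NTT within Monocyte_1 and then within Infl_Mono, Mmp13 was at −5.88 and 1.00 (−6.88), Ccl4 at −2.13 and 1.29 (−3.42) and Vcan at 1.14 and −1.42 (2.55).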

How the results depend on the processing

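No paired analysis was possible because the labels give no shared replicate numbers and each group is 1 library. Alternatives were other scalings, other minimum counts, thinning, single macrophage labels, and leaving out cells with other-lineage or C1q genes over 5000 CPM. Without such cells, Monocyte_1 took 17.4% of NTT and 1.09% of RTT cells. Cells with a macrophage label were not left out for C1q, so these lower shares follow in part from the rule. Cells with at least 1500 genes gave 1.55% in RTT. Other denominators gave 44.8% and 60.9% in NTT and 49.7% in RTT. With 15 neighbours 25.3% of RTT Monocyte_1 cells lay mostly among their own label. The median classical monocyte share per NTT cell was 0.50% thinned to 1000 UMIs and 0.543% unthinned.

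Counts of 2-fold genes followed the minimum count, as more genes of few UMIs were then compared. With minima of 5, none and 100 UMIs, genes higher in Monocyte_1 than Infl_Mono in NTT numbered 761, 994 and 92 (lower 817 with none and 239 with 100), and in RTT 342, 766 and 17 (lower 780, 1189 and 61). Against macrophages they numbered 363, 592 and 144 in NTT (lower 1510 with none and 354 with 100) and 230, 772 and 32 in RTT (lower 1279, 1618 and 65). In RTT over NTT they numbered 264, 971 and 18 (lower 937, 1245 and 67). Thinned, the counts were 215 higher against Infl_Mono in NTT, 41 and 125 (lower) in RTT, 146 and 360 against macrophages in NTT, 50 and 157 in RTT, and 33 and 132 between libraries.

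Without the lineage-marked and C1q-bearing cells they were 198 higher and 257 lower against Infl_Mono in NTT, 117 lower in RTT, 70 and 214 against macrophages in RTT, and 45 and 197 between libraries. Between libraries, Infl_Mono in place of Monocyte_1 gave 236 higher with all cells, and 17 higher and 206 lower without those cells. DESeq2 size factors gave 167 higher against RTT macrophages. Against single labels in NTT, 494 were higher and 423 lower for TAM_H2Ab1, 353 and 460 for TAM_Spp1, 604 higher for TAM_cycling and 276 lower for Macro. In RTT they were 67 and 129 for TAM_Spp1, 336 and 875 for Ctsk_Macro and 634 lower for TAM_cycling.

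Some ratios reversed, and the cause was not tested. Without those cells, Ighm was at −1.48 in NTT (−1.25 with C1q not used) and −0.50 in RTT, and in RTT Cd69 was at 0.14 and Rsad2 at 0.045 against Infl_Mono. Against TAM_Spp1 alone in NTT, Tk1 was at 1.51, Cenpf at 1.06, Serpinb6a at 0.80, Pclaf at 0.72, S100a11 at −0.027 and Tnfaip2 at −0.20, and in RTT Pclaf was at 1.66, Prc1 at 0.39 and Il1r2 at −0.28. In RTT, Pclaf was at 0.96 and Prc1 at 0.84 against TAM_C1q, and Tnfaip2 at −0.082 against Ctsk_Macro. Of 121 named ratios, 83 were scored as unchanged under every alternative run. For a ratio of at least 2-fold, this meant the same direction and the same side of 2-fold. For a smaller ratio, a change of sign was not counted as a change. The 99 RTT cells limit what could be compared to genes of moderate level.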
